A study of Mus musculus with 70 samples.

Results

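CAST is an inbred mouse strain derived from wild Mus musculus castaneus, and the 8 arrays described here hold the dorsal root ganglia of this strain before and after axotomy. They are 8 of 70 labelled arrays, and the rule that chose them was the label alone: 4 arrays are labelled CAST with the treatment NAIVE and 4 are labelled CAST with AX5D, which is read here as axotomy followed by collection 5 days later. Each sample was total RNA of 6 ganglia from 3 mice, and per the labels the 4 replicates of a group are biologically distinct, so each array stands for a pool and not for 1 animal. The cut nerve, the ganglion levels, the age and the sex of the mice, and any sham operation, are not given in the sources used here; no transgene or drug is named, and the controls are mice with no axotomy. The other 62 arrays hold the same 2 treatments in 129, AJ, C3H, C57, DBA, NOD, NZO and WSB mice, and they serve here to estimate the spread between replicates and to show where the response of CAST differed.

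Dorsal root ganglia hold the cell bodies of sensory neurons, each wrapped by satellite glial cells, together with Schwann cells, fibroblasts, vessels and resident macrophages. When the peripheral axon is cut, the neurons switch on a set of transcription factors and growth-associated proteins, change their neuropeptides and reduce many of the channels and receptors of the mature state, while macrophages gather around them. Type I and type II interferons act through STAT proteins on promoters that carry a short response element, and the genes they induce code for antiviral enzymes, chemokines and antigen presentation.

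The labelled tissue was borne out by its markers. Of 12 measured markers of sensory neuron identity 11 were above background on all 8 CAST arrays, and the mean level of the list lay between 11.59 and 12.23 on the log2 scale. The 8 arrays detected 13505 to 14075 probes above background out of 25697. Before normalization the median intensity was 253 to 299 on the naive arrays and 310 to 359 on the axotomy arrays, ranges that did not overlap. After normalization, arrays of the same group had a mean correlation across the genes tested of 0.987 and arrays of different groups 0.962. Naive arrays 2 and 3 were farthest from their own group (0.983 and 0.982). The 8 arrays lie in 8 different runs of 8 neighbouring columns of the table, so no comparison within a run was possible. Probes were designed on reference mouse sequence, and mismatches to CAST sequence were not tested. The comparisons are therefore of changes within a strain, never of levels between strains. Whether a mismatch alters the measured size of a change was not tested either. Arrays above background were counted for CAST alone, so a small response in another strain can come from a signal below background.

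The first question was which genes axotomy changed in CAST. Values are normalized log2 intensities, a difference is the mean of the 4 axotomy arrays minus the mean of the 4 naive arrays, SE is that of the fit, and adjusted p-values are from limma with Benjamini-Hochberg adjustment over 11815 genes. At adjusted p 0.05, 1705 genes rose (14.4%) and 1903 fell (16.1%), together 30.5% of the genes tested. The changes upward were larger. The median difference was 0.71 among the genes that rose and −0.55 among those that fell, 547 genes rose and 233 fell at least 2-fold, 185 rose and 11 fell at least 4-fold, and 66 rose and 0 fell at least 8-fold. All 4 axotomy values lay above all 4 naive values for 12.9% of the genes and below them for 13.8%. Without naive arrays 2 and 3, 1351 genes rose and 1434 fell.

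Npy, the neuropeptide Y gene, had the highest rise. Arrays are given throughout in the order of their replicate numbers 1 to 4. Npy was at 8.12, 7.53, 6.09 and 6.34 on the naive arrays and at 14.18, 14.22, 14.27 and 14.07 after axotomy, a rise of 7.16 (SE 0.27, 143-fold, adjusted p 9.08e-32). The naive arrays were widely spread, while the axotomy arrays lay close together far above them. Wfdc3, which codes for a protein with a WAP protease-inhibitor domain, was at 6.63, 7.09, 5.98 and 5.83 and then at 11.91, 12.22, 12.04 and 11.73 (rise 5.59, SE 0.18), with 2 of 4 naive arrays above background. Ecel1, a peptidase gene of the endothelin-converting enzyme family, was at 6.38, 6.54, 5.55 and 6.16 and then at 11.62, 11.29, 11.81 and 11.68 (rise 5.45, SE 0.18, 3 of 4 naive arrays above background). In both genes every axotomy array exceeded every naive array by more than the spread within either group.

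Several of the highest rises started below background, so that a lower bound replaces the fold. The serotonin transporter gene Slc6a4 was above background on no naive array and on all 4 axotomy arrays, where it read 10.58, 10.86, 11.15 and 10.67, a rise of at least 28.3-fold (adjusted p 3.32e-36). The laminin subunit gene Lamb3 rose at least 15.7-fold, to 9.61, 9.90, 10.25 and 10.07, and Ucn, the gene of the stress peptide urocortin, at least 12.8-fold, to 9.70, 9.53, 9.62 and 9.79. Speer1 rose at least 28.2-fold and Speer3 by 5.06, but the Speer genes are a family of near-identical copies that share probe sequence, so which copy the signal came from is uncertain. The rest of the 15 highest were Usp18 (5.31), Atf3 (5.28), Gal (4.94), the cholecystokinin receptor gene Cckbr (4.88), Sprr1a (4.84), Sectm1b (4.61), whose product is secreted or membrane-bound, and the zinc finger transcription factor gene Wt1 (4.58). Altogether 111 genes were above background on all 4 axotomy arrays and on no naive array. Besides those named, the highest bounds among them belonged to Rin1, a Ras effector gene (at least 11.3-fold), the antiviral gene Mx1 (at least 11.1-fold), the cystatin-domain gene Cstdc4 (at least 11.0-fold) and the immunoglobulin receptor gene Fcgr4 (at least 9.75-fold).

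The deepest falls were smaller. Fbp1, which codes for the gluconeogenic enzyme fructose-1,6-bisphosphatase, was at 8.28, 8.19, 8.83 and 8.22 and then at 6.10, 6.16, 5.87 and 5.83, and it fell by 2.39 (SE 0.28, 5.24-fold lower, adjusted p 7.97e-11), with 2 of 4 axotomy arrays above background. Sst, the somatostatin gene, was at 11.10, 10.68, 11.84 and 11.29 and then at 9.14, 9.05, 8.48 and 9.01, and it fell by 2.30 (SE 0.23). Neither gene had overlapping groups. The subunits of the serotonin-gated ion channel fell together: Htr3b from 9.76, 9.77, 9.34 and 9.65 to 7.54, 7.52, 6.93 and 7.45, and Htr3a from 10.10, 10.25, 9.64 and 10.22 to 7.79, 8.09, 7.38 and 8.10. Axotomy array 3 was the lowest of its group in both subunits. The other members of the lowest 15 were Serpina1d (−2.29) and Serpina1b (−1.98), alpha-1-antitrypsin genes whose near-identical copies make the assignment uncertain, the itch receptor gene Mrgprb5 (−2.19), the scaffold gene Lin7b (−2.15), Igsf9 (−2.09), the cell junction scaffold gene Patj (−2.06), the neurexophilin gene Nxph2 (−2.02), the nicotinic receptor subunit gene Chrnb3 (−1.96), Igsf21 (−1.96), and 2 genes of bone matrix, Ibsp (−2.12) and Bglap (−1.95).

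**Figure D1:**
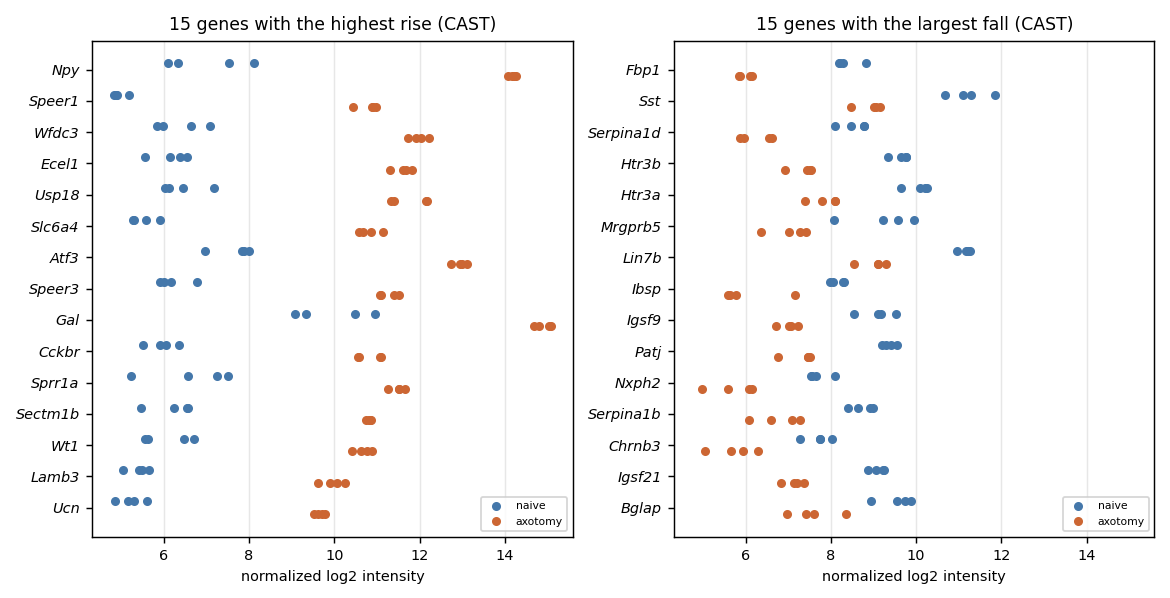
Normalized log2 intensity of the 15 genes with the highest rise (left) and the 15 with the largest fall (right), each point 1 CAST array, blue for the 4 naive and orange for the 4 axotomy arrays. In every gene shown the groups do not overlap, and the rises span up to 7.16 log2 units against 2.39 for the deepest fall.

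Ibsp codes for bone sialoprotein and Bglap for osteocalcin, both made by bone-forming cells. Ibsp was at 7.97, 8.30, 8.29 and 8.04 and then at 7.16, 5.76, 5.59 and 5.63, above background on 1 axotomy array, the first. Bglap fell from 9.88, 9.74, 8.94 and 9.54 to 8.34, 7.60, 6.97 and 7.41. Its neighbour Bglap2, a near-identical copy looked up after these values were seen, fell by 1.57 (SE 0.38, adjusted p 0.000612), and Alpl, the alkaline phosphatase gene of the same cells, was at −0.11 (adjusted p 0.718). Which cells of the samples held these transcripts was not tested.

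Transcription factors of the injury response changed in 1 direction. Of 27 measured genes of this list 15 rose and 0 fell, where 14.4% of all genes rose and 16.1% fell, with a median of 0.52 against −0.03 over all genes; without naive arrays 2 and 3, 10 of them passed. Atf3, a stress-induced factor that marks axotomized neurons, was at 7.99, 7.83, 6.97 and 7.88 and then at 12.98, 12.96, 13.10 and 12.75 (rise 5.28, SE 0.19, 38.9-fold). Jun, its partner in AP-1 dimers, was at 10.68, 10.67, 10.34 and 10.60 and then at 11.79, 11.75, 12.01 and 11.98 (rise 1.31, SE 0.08). Naive array 3 was the lowest in both genes, and neither had overlapping groups. Nfil3, a bZIP repressor, rose by 2.10, Csrnp1 by 2.16, Smad1, an effector of BMP signalling, by 1.44, and Socs3, the feedback inhibitor of gp130 cytokine signalling, by 1.67. Of 14 genes of that cytokine pathway, 4 rose (Socs3, Il6ra at 0.89, Il6 at 0.77 and the kinase gene Jak2 at 0.63) and 1 fell, the oncostatin M receptor gene Osmr (−0.40). Il6 was above background on all 4 arrays of neither CAST group.

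Promoter windows in RefSeq, 250 bases before the start, were found for 13 of the 15 genes with the highest rise and for 13 of the 15 with the largest fall. The letters searched, on both strands, were TGANTCA, the core of an AP-1 site, found in 7.82% of 27025 mouse promoters, and TGACGTCA, the core of a cyclic AMP response element, found in 1.77%. Each was in 1 of the 13 rising genes (7.69%), and among the falling genes the AP-1 core was in 3 of 13 (23.1%) and the other in 1 of 13. The sequences below are RefSeq's on GRCm38.p6, a C57BL/6J assembly and not CAST, and are written 5′ to 3′ in the direction of the gene with the match in capitals; they are the 2 rising genes with a match.
Sprr1a: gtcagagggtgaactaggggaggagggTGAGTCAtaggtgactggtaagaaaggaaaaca
Ucn: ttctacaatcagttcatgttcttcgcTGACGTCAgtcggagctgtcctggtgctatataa
The Sprr1a stretch is chr3:92485965-92486024 on the minus strand and the Ucn stretch is chr5:31138906-31138965 on the minus strand, and their matches end 110 and 37 bases before the start of the gene. A match describes letters in a window and does not show binding.

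Genes of the growth cone and the cytoskeleton rose in 24 of 39 members and fell in 2, against 14.4% and 16.1% of all genes, with a median of 0.44. Sprr1a, a small proline-rich protein that promotes neurite growth, went from 6.57, 7.51, 7.25 and 5.23 to 11.51, 11.66, 11.52 and 11.25 (rise 4.84, SE 0.31, 28.6-fold). Naive array 4 lay apart at the low end, at 5.23, where background may limit the measured size of the rise. No naive value came near the axotomy values. Gap43, an abundant protein of the growth cone, went from 12.79, 12.02, 12.92 and 12.46 to 13.92, 14.02, 14.06 and 13.80 (rise 1.40, SE 0.19), again without overlap. The stathmin gene Stmn4 rose by 3.14, the axon guidance ligand gene Flrt3 by 3.10, the tubulin gene Tubb6 by 2.71, the laminin receptor gene Itga7 by 2.02 and the actin-bundling gene Fscn1 by 1.88. The members that fell were the neurofilament genes Nefh (−0.59) and Nefl (−0.63, above background on 2 naive arrays and no axotomy array), both with overlapping groups. The call of Nefh was lost without naive array 3 (−0.38, adjusted p 0.0886), and that of Nefl without naive array 1 or 3 or axotomy array 1 or 4 (highest adjusted p 0.183, without naive array 3). The cell adhesion gene Chl1, singled out after its values were seen, rose by 0.68 in CAST and by 2.27 as a mean of the other 8 strains (difference −1.58, SE 0.20, adjusted p 6.53e-09). Of 17 genes of axon growth inhibition 4 rose and 5 fell, beside 14.4% and 16.1% of all genes, and without axotomy array 4 or naive array 4 only 2 rose. Among them Rtn4, which codes for Nogo, was higher by 0.72 and Omg, a myelin ligand of the Nogo receptor, lower by 1.37.

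Activins are secreted dimers of the subunits that Inhba and Inhbb code for; they act through receptor kinases and Smad proteins, and follistatin, the product of Fst, binds and blocks them. In CAST 7 of 13 measured genes of this pathway rose and 1 fell, against 14.4% and 16.1% of all genes. Both ligand subunits rose: Inhbb from 8.16, 7.39, 8.15 and 7.86 to 10.72, 11.18, 11.45 and 10.92 (3.18, SE 0.23), and Inhba from 6.22, 6.81, 5.86 and 5.57 to 9.46, 8.96, 8.95 and 9.70 (3.15, SE 0.23). For Inhba 2 of 4 naive arrays were above background. The inhibitor Fst rose from 7.75, 7.59, 7.47 and 8.12 to 10.22, 10.19, 9.96 and 9.52 (2.24, SE 0.21). Groups did not overlap in these 3 genes. The type 1 receptor gene Acvr1 rose by 1.34, Acvr1c at least 1.16-fold from below background, Smad2 by 0.31 and Smad4 by 0.30, while Fstl1, a follistatin-like gene, fell by 0.71. Smad3 (0.50), Acvr2b (0.14), Tgfbr3 (0.06), Acvr2a (−0.21) and Inha (−0.43) did not pass. Against the mean of the other 8 strains the response of Inhba was higher by 2.52, and that of Fst was lower (−2.12), so that within CAST the rises of Inhba and Fst differed by less than 1 log2 unit, where Fst rose by 4.35 and Inhba by 0.63 in the other strains.

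Neuropeptide genes moved both ways, with 6 of 18 higher and 8 lower, against 14.4% and 16.1% of all genes. Galanin's gene Gal went from 10.96, 9.08, 10.48 and 9.32 to 14.81, 15.08, 15.04 and 14.69 (rise 4.94, SE 0.23), the PACAP gene Adcyap1 from 10.71, 10.98, 10.77 and 10.86 to 12.94, 12.94, 13.12 and 13.09 (2.19, SE 0.09), and Vgf, a neurosecretory protein gene, rose by 1.39. Several peptides of uninjured sensory neurons fell. Besides Sst, the substance P gene Tac1 went from 13.28, 13.48, 13.15 and 13.22 to 12.34, 12.43, 11.87 and 12.11 (−1.10, SE 0.12), and the neuromedin B gene Nmb fell by 1.26, Chga, a protein of secretory granules, by 1.18 and the itch peptide gene Nppb by 0.76. Tac1 and Adcyap1 changed in opposite directions with groups that did not overlap in either. Of 13 peptide and orphan receptors 3 rose and 4 fell: Cckbr went from 6.35, 6.05, 5.50 and 5.90 to 10.56, 10.59, 11.09 and 11.06, and Gpr151, a receptor of habenular and sensory neurons, from 8.72, 8.62, 8.04 and 8.58 to 12.05, 12.08, 11.87 and 11.71 (3.44, SE 0.16). The neuropeptide Y receptor gene Npy1r rose by 1.45, and the nociceptin receptor gene Oprl1 fell by 1.52. In the test of the difference the lists of peptides and receptors had 6 and 5 members below the mean of the other strains and 1 each above. Over all genes 3.74% were below and 4.28% above. For receptors 2 were above without axotomy array 3. A member below can be a weaker rise or a deeper fall in CAST. Sst, which fell in CAST, was among those below (difference −0.93). Nts, the neurotensin gene, rose by 2.29 against 3.51 and Cckbr, as measured, by 4.88 against 6.11. Naive values of Cckbr in CAST reached down to 5.50, so background may limit the measured size of its rise and difference. Grp, the gastrin-releasing peptide gene, rose at least 1.57-fold in CAST, from below background, which sets no upper limit to compare with the other strains.

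Most markers of nociceptors and of large-diameter neurons fell. In such bulk samples fewer cells of a type and less RNA per cell cannot be told apart. Among 20 nociceptor and itch genes 11 fell and 1 rose (median −0.43), and among 16 markers of large-diameter neurons 13 fell and 0 rose (median −0.59). Over all genes 16.1% fell and 14.4% rose. Mrgprd, an itch and pain receptor of nonpeptidergic nociceptors, went from 10.36, 10.46, 10.49 and 10.46 to 8.60, 8.75, 8.33 and 8.53 (−1.89, SE 0.18), and the pain channel gene Scn11a from 14.64, 14.96, 14.88 and 14.81 to 14.08, 13.95, 13.98 and 14.16 (−0.78, SE 0.10). The lysophosphatidic acid receptor gene Lpar3 fell by 1.61 and the kinase gene Prkcq by 1.17. Gfra3, the artemin co-receptor of peptidergic nociceptors, moved against its list, from 11.08, 11.04, 10.76 and 11.12 to 12.05, 12.10, 12.28 and 12.29 (rise 1.18, SE 0.15). Among large-diameter markers Kcna2, a potassium channel of the juxtaparanode, went from 11.12, 11.37, 11.27 and 11.32 to values between 9.89 and 10.18 (−1.27, SE 0.12). Etv1, a transcription factor of proprioceptors, fell by 1.32, the calcium sensor gene Vsnl1 by 1.28, Whrn by 1.07 and the calcium-binding protein gene Pvalb by 0.98. In each gene named so far in this paragraph the groups did not overlap. General neuronal genes moved less: 6 of 12 identity markers fell and 0 rose (median −0.26), led by the catecholamine enzyme gene Th (−1.45), while Tubb3 (0.08), Uchl1 (0.02) and Avil (−0.06) did not pass.

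Among channels, receptors and the release machinery more genes fell than rose. The shares over all genes were 16.1% lower and 14.4% higher. Of 28 potassium channel genes 17 fell and 3 rose (median −0.45; 1 rose without axotomy array 4 or without naive array 3), of 20 sodium and calcium channel genes 10 fell and 1 rose (median −0.48), of 27 transmitter receptor and transporter genes 13 fell and 2 rose (median −0.64), and of 27 genes of synaptic vesicles and exocytosis 17 fell and 2 rose (median −0.43). The calcium-activated channel gene Kcnn1 fell by 1.39, the channel-interacting protein gene Kcnip2 by 1.43, Kcnt1 by 1.35, the calcium channel subunit gene Cacnb4 by 0.95 and Scn10a, a nociceptor sodium channel gene, by 0.94. Kcnmb4, a subunit that modifies large-conductance potassium channels, rose from 9.23, 9.16, 9.45 and 9.28 to 10.69, 10.71, 10.84 and 10.55 (1.42, SE 0.09). Cacna2d1, the calcium channel subunit bound by gabapentin, rose from 13.18, 13.01, 13.00 and 12.65 to 14.17, 14.35, 14.36 and 14.43 (1.37, SE 0.17). Both rises went against their lists, with no overlap of groups. Vamp1, a vesicle fusion protein gene, went from 12.69, 12.56, 12.56 and 12.62 to 11.12, 11.00, 10.98 and 11.14 (−1.55, SE 0.09), and Rph3a, a Rab3 effector gene, fell by 1.49, while Doc2b, a calcium sensor of release, rose at least 2.26-fold from below background. Among ligand-gated receptors the nicotinic subunit gene Chrna6 fell by 1.81 and the kainate receptor gene Grik1 by 1.09.

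**Figure D2:**
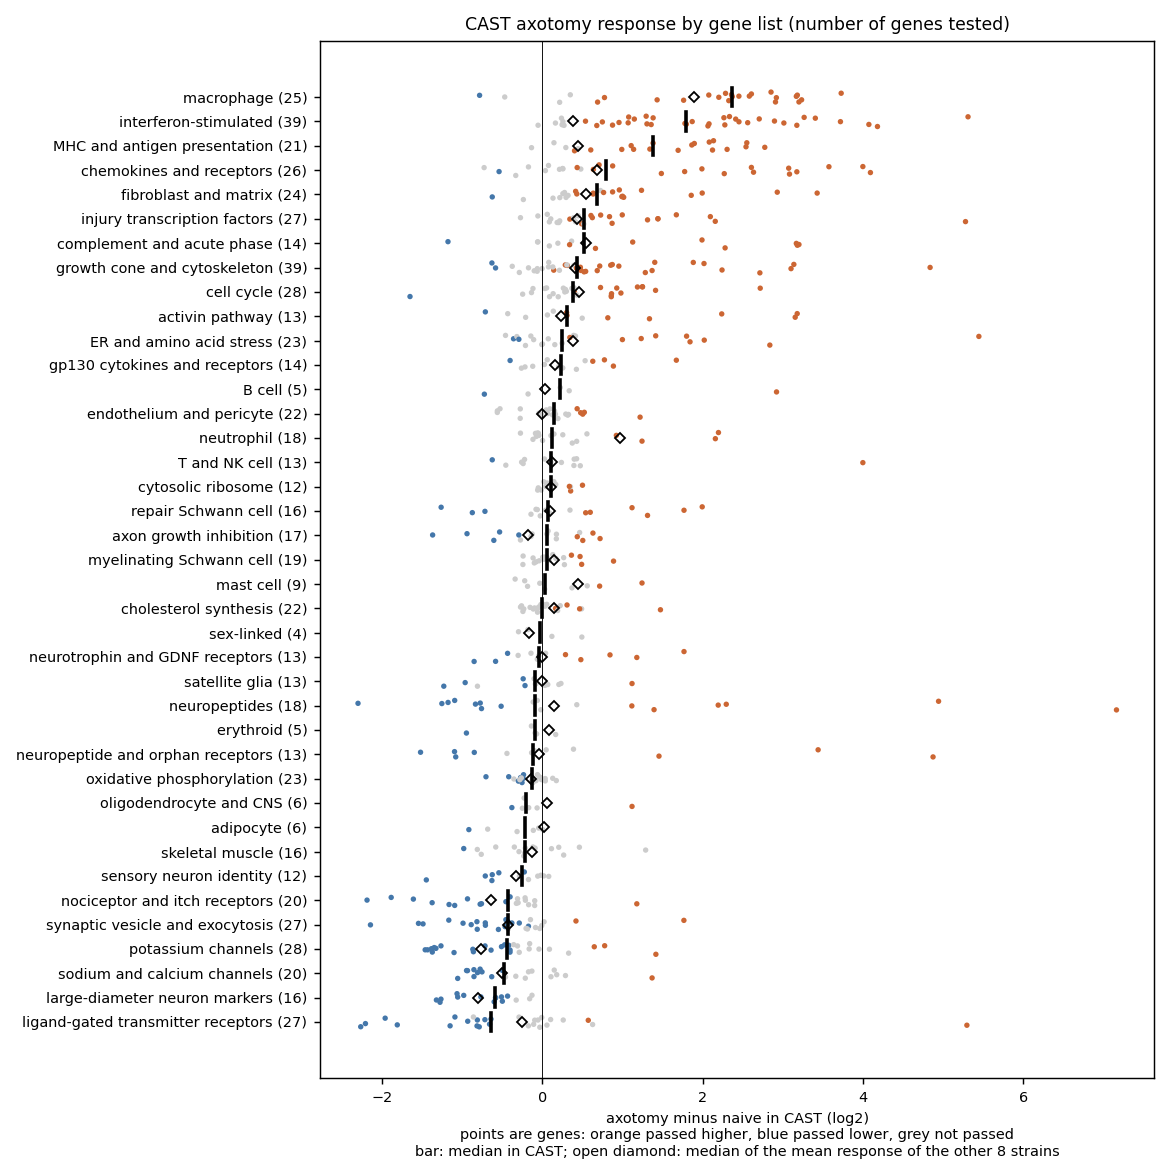
Axotomy minus naive in CAST on the log2 scale for every tested member of 39 gene lists, ordered by the list's median, with the number of genes tested in brackets; orange points passed as higher, blue as lower and grey did not pass, the bar is the median in CAST and the open diamond the median of the mean response of the other 8 strains. Macrophage (2.36) and interferon-stimulated genes (1.80) have the highest medians, and for the interferon list the diamond lies at 0.39.

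Interferon-stimulated genes rose in 33 of 39 members, and 0 fell. Their median was 1.80, against −0.03 over all genes and 0.39 for the same genes as a mean of the other 8 strains. In 33 of the 39 all 4 axotomy values lay above all 4 naive values, against 12.9% of all genes. Ifit2, an RNA-binding antiviral gene, went from 7.80, 7.71, 6.70 and 7.03 to 11.89, 12.33, 10.87 and 10.87 (rise 4.18, SE 0.23, 18.1-fold, adjusted p 3.06e-24). Usp18, which removes ISG15 from proteins and dampens interferon signalling, went from 6.12, 7.17, 6.46 and 6.04 to 12.16, 12.15, 11.34 and 11.39 (rise 5.31, SE 0.29). Ifit3 went from 9.31, 9.38, 8.83 and 8.88 to 13.24, 13.46, 12.01 and 12.56 (rise 3.72, SE 0.23). In all 3 genes axotomy arrays 1 and 2 read higher than arrays 3 and 4. Isg15, the ubiquitin-like modifier itself, went from 6.69, 6.18, 6.46 and 6.23 to 10.28, 10.27, 8.93 and 9.14 (rise 3.27), and Rsad2, the viperin gene, from 8.93, 9.47, 8.61 and 8.66 to 12.57, 12.91, 11.04 and 11.19 (rise 3.01), with the same order of arrays. The oligoadenylate synthetase-like gene Oasl2 rose by 2.90 and Ifitm3, a membrane protein that blocks virus entry, by 2.08. The transcription factor genes of the pathway rose as well: Stat2 by 1.30, and Irf7, singled out after its values were seen, at least 3.03-fold from below background on every naive array. The members that did not pass were Irgm1 (0.26), Trim30a (0.24), Zbp1 (0.27), Trim25 (0.24), Cmpk2 (0.16) and Ifi27 (−0.05).

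The mean level of the 39 genes was 8.16 to 8.32 on the naive arrays. After axotomy it was 10.41 and 10.50 on arrays 1 and 2 and 9.69 and 9.85 on arrays 3 and 4. All 4 axotomy arrays lay far above the naive range, with arrays 1 and 2 apart from arrays 3 and 4. The count of 33 was unchanged without axotomy array 1, without axotomy array 2 and without naive arrays 2 and 3.

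Promoter windows in RefSeq were found for 29 of the 39 interferon genes. The core of the interferon-stimulated response element, searched on both strands as GAAA, any 2 bases and GAAA again in the 250 bases before the start, was in 13 of the 29 (44.8%), against 3.27% of 9515 tested genes with a window and 3.46% of 27025 promoters. The list was made of known interferon targets, so this share describes the list. The 6 promoters below are shown because their genes rose most among those with a match or, for Stat2, code for a factor of the pathway; they are RefSeq's sequences on GRCm38.p6, 5′ to 3′ in the direction of the gene, with the matched letters in capitals (TTTC, 2 bases and TTTC where the match is on the other strand).
Isg15: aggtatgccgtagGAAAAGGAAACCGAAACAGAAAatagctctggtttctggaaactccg
Bst2: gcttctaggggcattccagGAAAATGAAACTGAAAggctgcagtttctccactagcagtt
Ifit3: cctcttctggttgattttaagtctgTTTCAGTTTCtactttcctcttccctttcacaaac
Cxcl10: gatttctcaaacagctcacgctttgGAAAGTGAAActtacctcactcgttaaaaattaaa
Rsad2: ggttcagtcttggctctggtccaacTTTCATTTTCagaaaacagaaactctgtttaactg
Stat2: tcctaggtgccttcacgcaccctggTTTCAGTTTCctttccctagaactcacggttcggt
They lie at chr4:156200850-156200909 (minus strand), chr8:71537562-71537621 (minus), chr19:34583382-34583441 (plus), chr5:92349068-92349127 (minus), chr12:26456538-26456597 (minus) and chr10:128270251-128270310 (plus). The Isg15 stretch holds 3 overlapping matches and the Bst2 stretch 2, the nearest ending 57 and 115 bases before the start. Irgm1 and Trim30a, which did not pass, also hold a match.

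Against the other strains, 33 of the 39 interferon genes had a response above the mean of the other 8 and 0 below, where 4.28% of all genes were higher and 3.74% lower in this test of the difference. These 33 are not the same set as the 33 that rose: Igtp (1.87 against 1.48) rose without a called difference, and Cmpk2 (0.16 against −0.75) differed without a called rise. The largest differences were those of Usp18 (5.31 against 1.06, difference 4.25, SE 0.31, adjusted p 2.04e-17), Ifit2 (4.18 against 0.08, difference 4.10), Ifit3 (3.72 against 0.42, difference 3.30) and Bst2 (3.41 against 0.49, difference 2.92). In no other strain did these 4 genes reach the value in CAST: the highest single strain was at 3.05 for Usp18, 1.18 for Ifit2, 2.26 for Ifit3 and 1.43 for Bst2. Mx1, below background on every naive CAST array, rose at least 11.1-fold in CAST and by at most 1.35 on the log2 scale, as measured, in another strain. The response of Cxcl10 was 3.25 in 1 other strain and 3.17 in CAST. Without naive arrays 2 and 3 the number of interferon genes with a called difference was 27, and without axotomy array 2 it was 28.

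**Figure D3:**
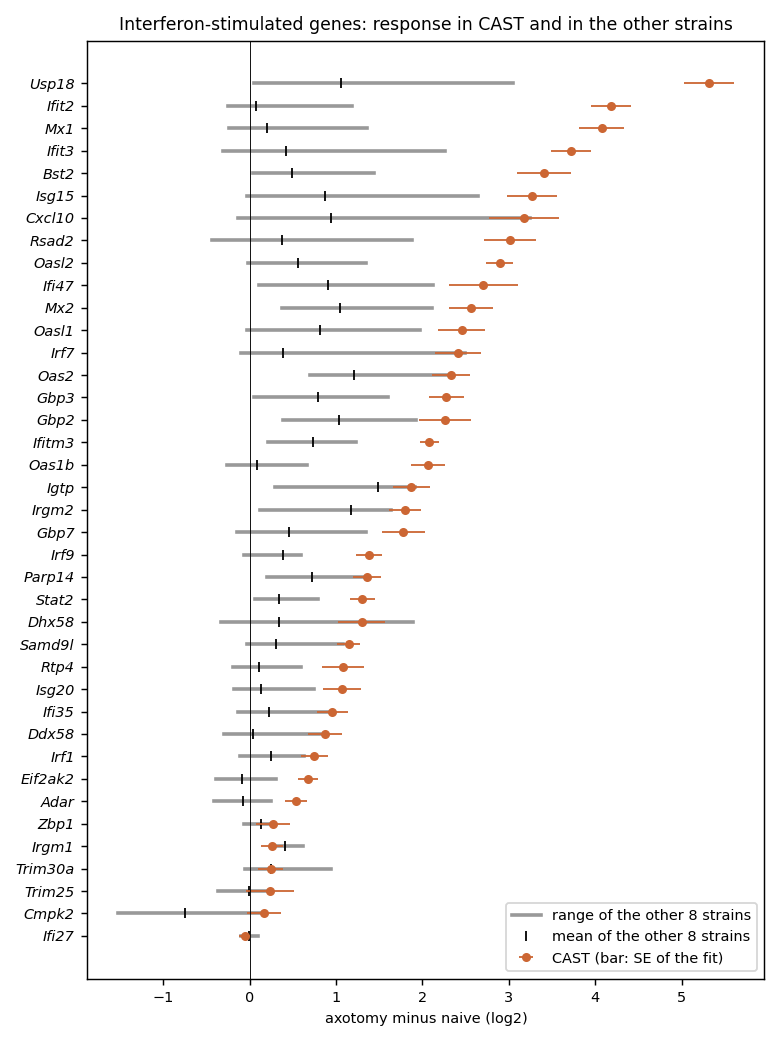
Axotomy minus naive on the log2 scale for 39 interferon-stimulated genes, with the CAST response as orange points (bars are the SE of the fit) and the other 8 strains as a grey range with their mean as a black mark. From Usp18 (5.31 in CAST, up to 3.05 elsewhere) to Adar (0.54) the CAST points lie right of the black marks.

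Antigen presentation genes rose in 17 of 21 members and fell in 0, against 14.4% and 16.1% of all genes. Their median was 1.38 against 0.44 in the other strains. B2m, the light chain of MHC class I, went from 12.58, 12.83, 12.70 and 12.65 to 14.51, 14.45, 14.33 and 14.26 (rise 1.69, SE 0.09, adjusted p 1.55e-24). Cd74, the invariant chain of class II, went from 8.54, 9.50, 9.33 and 9.52 to 12.22, 11.55, 12.12 and 12.09 (rise 2.77, SE 0.19), and the nonclassical class I gene H2-T23 from 9.25, 9.18, 9.19 and 9.59 to 12.20, 11.83, 11.76 and 11.58 (rise 2.54). No group overlapped in these 3 genes, although naive array 1 was low for Cd74. The class II chain gene H2-Eb1 rose by 2.55, H2-DMb1, which loads class II, by 2.08 and the class I-like gene H2-T10 by 2.13. MHC genes are polymorphic and alike in sequence, so the assignment of a probe to 1 H2 gene in CAST is uncertain. In the test of the difference 12 of the 21 were above the other strains and 0 below, where 4.28% of all genes were above and 3.74% below. B2m was above by 1.08, H2-T23 by 1.85 and H2-T10 by 2.04.

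Macrophage markers rose in 21 of 25 members, where 14.4% of all genes rose and 16.1% fell. Their median was 2.36 against 1.89 in the other strains. The complement genes C1qa, C1qb and C1qc, made by macrophages, rose by 3.20, 3.18 and 3.17, and Csf1, the growth factor that macrophages depend on and that injured sensory neurons make, went from values between 6.34 and 7.20 to 10.09, 10.14, 10.38 and 10.05 (rise 3.23, SE 0.16). Fcer1g, the signalling chain of Fc receptors, went from 8.25, 8.71, 7.99 and 8.75 to 11.48, 11.14, 11.52 and 11.23 (rise 2.92), and Laptm5, a lysosomal protein of leukocytes, rose by 2.37. Groups did not overlap in Csf1 or Fcer1g. One marker fell, Ly86, from 13.39, 13.31, 13.20 and 13.33 to 12.66, 12.73, 12.21 and 12.48 (−0.78, SE 0.11), and without axotomy array 1 there were 2. The naive values of Ly86 lay far above the mean naive level of the list, 7.64 to 7.81. Which cells held its transcript was not tested. The list differed from the other strains both ways, 6 members higher and 4 lower, beside 4.28% and 3.74% of all genes. Fcer1g rose by 2.92 against 0.27 and the protease gene Ctss by 3.73 against 1.55, while the mannose receptor gene Mrc1 rose by 1.43 against 2.35 and Ly86 differed by −1.15. Ctss and Mrc1 were named after their values were seen. The mean level of the list was 7.64 to 7.81 on the naive arrays and 9.67 to 9.87 after axotomy, without the step seen among the interferon genes.

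Chemokines and their receptors rose in 16 of 26 members and fell in 1, the skin chemokine gene Ccl27a (−0.54), against 14.4% and 16.1% of all genes. Ccl9 rose by 3.58, Ccl7, which attracts monocytes, by 3.07, and Ccl4 at least 2.30-fold and Ccl8 at least 4.13-fold from below background. Cxcl13, which attracts B cells, rose at least 4.52-fold, to 8.44, 7.74, 7.79 and 8.68. The interferon-gamma-induced chemokine gene Cxcl9 rose at least 9.08-fold, to 9.82, 9.69, 8.83 and 8.35, and Ccl5 at least 8.08-fold, to 9.75, 9.04, 8.49 and 8.72. These 3 were above background on no naive array and on all 4 axotomy arrays. The test of the difference put 10 chemokine genes above the other strains, Cxcl13, Cxcl9 and Ccl5 among them, and 4 below. It put 4.28% of all genes above and 3.74% below. The 10 became 6 without axotomy array 4 or naive array 4, and the 4 became 2 without naive array 2. Rises from below background are lower bounds, so for Cxcl13, Cxcl9, Ccl5 and Ccl8 no size of the difference is given here. Of 14 genes of complement and the acute phase 8 rose and 1 fell, the membrane inhibitor gene Cd55 (−1.18). C4b rose from 9.02, 9.14, 8.87 and 9.17 to 11.45, 11.39, 11.52 and 10.97 (2.28, SE 0.13), 1.01 above the other strains, and Cfb, factor B of the alternative pathway, rose at least 1.86-fold from below background.

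**Figure D4:**
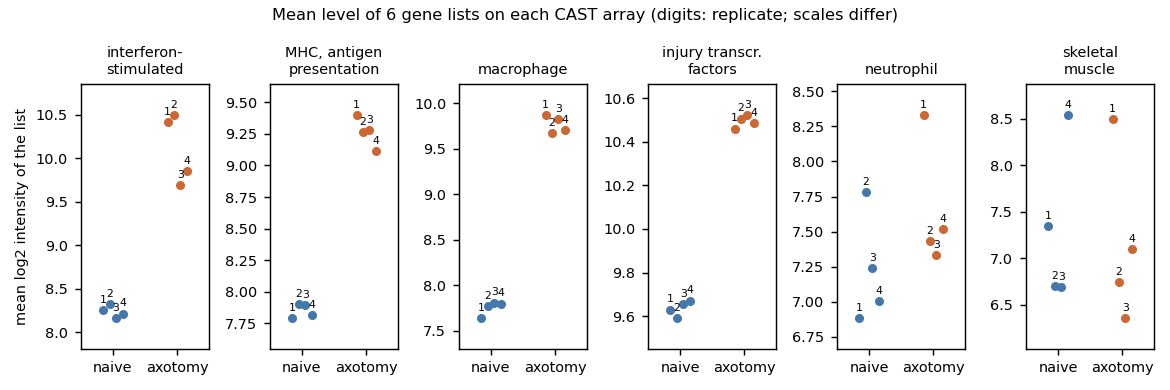
Mean normalized log2 intensity of 6 gene lists on each CAST array, blue naive and orange axotomy, with the replicate number beside each point and a separate scale per panel. Interferon-stimulated genes were at 8.16 to 8.32 before and 9.69 to 10.50 after axotomy, and neutrophil and skeletal muscle markers stood high on single arrays of either group.

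Markers of other cells that a ganglion can hold or carry were measured beside these lists. Their counts stand beside 14.4% of all genes higher and 16.1% lower. Neutrophil markers rose in 4 of 18 (Csf3r at 2.20, the formyl peptide receptor gene Fpr2 at 2.16, Hdc at 1.24 and Il1b at 0.92) with a median of 0.12, against 0.97 in the other strains; their mean level was 6.88 to 7.78 on the naive arrays, highest on array 2, and 7.33 to 8.33 after axotomy, highest on array 1. Neither CAST group had Il1b above background on all 4 arrays. The abundant granule genes S100a8 (0.25) and S100a9 (0.14) did not pass. Skeletal muscle genes had 1 of 16 lower, Pvalb, which sensory neurons also express; their mean was 8.54 on naive array 4 and 8.50 on axotomy array 1 and 6.36 to 7.35 on the other 6 arrays. Of 13 T and NK cell markers 1 rose, Ccl5, and 1 fell, Thy1 (−0.63, against 0.12 in the other strains), which neurons express strongly; the T cell receptor genes Cd3d (0.47), Cd3e (0.39) and Cd3g (0.43) did not pass. The mean levels of the T and NK cell (6.63 to 6.74 naive, 6.95 to 7.13 after axotomy), B cell (5.70 to 5.90, then 6.14 to 6.50) and mast cell lists (5.62 to 5.67, then 5.82 to 5.94) were higher on all 4 axotomy arrays than on any naive array. Large rises of few members weigh on these means, Ccl5, Fcmr and Hdc among them. The median changes of the members were small, 0.10, 0.22 and 0.03 in the same order of lists. B cell markers had 1 of 5 higher, Fcmr (2.92), and 1 lower, Cd79a (−0.72), a call lost without any of naive arrays 1 and 2 and axotomy arrays 2 and 3 (highest adjusted p 0.0951). Mast cell markers had 2 of 9 higher (Hdc and Gata2), adipocyte markers 1 of 6 lower (Lep, −0.92), erythroid markers 1 of 5 lower (Car2, −0.95), and endothelial and pericyte markers 5 of 22 higher, with the glucose transporter gene Slc2a1 at 1.22. The 5 became 3 without axotomy array 4, naive array 2 or naive array 3, and without naive array 3 another 2 were lower. T and NK cell markers had 2 higher without axotomy array 2 or naive array 2 and 2 lower without axotomy array 2 or naive array 3. Of 4 sex-linked transcripts 0 passed. Whether these cells contribute to the interferon, chemokine or macrophage changes was not tested.

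Fibroblast and matrix genes rose in 15 of 24 members, with a median of 0.68, where 14.4% of all genes rose and 16.1% fell. Timp1, an inhibitor of metalloproteinases, went from 7.81, 8.25, 6.76 and 7.61 to 11.15, 11.03, 11.07 and 10.89 (rise 3.43, SE 0.25), and the membrane metalloproteinase gene Mmp16 rose by 2.93, the matrix gene Tnc by 1.99, Tgfbi by 1.86 and Mmp2 by 1.24. The member that fell was Thy1. Cell cycle genes rose in 12 of 28, with the spindle gene Prc1 at 2.72, the replication gene Uhrf1 at 1.41, the chromatin gene Hmgb2 at 1.25 and the helicase gene Mcm6 at 1.19. The thymidine kinase gene Tk1 moved against them, from 10.94, 10.70, 10.83 and 10.95 to 9.49, 9.32, 8.75 and 9.25 (−1.65, SE 0.24). Genes of cellular and amino acid stress rose in 9 of 23 and fell in 2 (1 without axotomy array 2, naive array 3 or naive array 4), with Gadd45a, induced by DNA damage and stress, at 2.84, the glutathione-degrading enzyme gene Chac1 at 2.02, the cell cycle inhibitor gene Cdkn1a at 1.84 and the arginine transporter gene Slc7a3 at 1.80.

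Glial genes changed both ways. Satellite glia markers rose in 1 of 13 and fell in 4, beside 14.4% and 16.1% of all genes, and only 2 fell without axotomy array 2 or naive array 3: the fatty acid binding protein gene Fabp7 went from 7.97, 8.03, 8.78 and 9.08 to 6.51, 7.37, 7.81 and 7.25 (−1.23, SE 0.32), the glycolytic enzyme gene Aldoc fell by 0.96, and Gfap, the filament of reactive glia, rose at least 1.55-fold from below background. Fabp7 had no overlap between groups and differed from the other strains by −1.47. Myelinating Schwann cell genes rose in 4 of 19, with Gldn, a protein of the node of Ranvier, at 0.89; without axotomy array 3 or 4 or naive array 2 or 4 the calls of Itgb4 and Egr2 were lost and 2 rose. In addition, genes of the repair Schwann cell rose in 6 of 16 and fell in 3. Among the latter the growth factor gene Gdnf rose by 1.77 (1 of 4 naive arrays above background), the transcription factor gene Olig1 fell by 1.26 and the morphogen gene Shh by 0.88. CNS markers had 1 of 6 higher, Gfap, and 1 lower, Slc17a7 (−0.38). Neurotrophin and GDNF receptor genes rose in 5 of 13 and fell in 3, with Ntrk3 at −0.58 and Ret at 0.48. Oxidative phosphorylation genes fell in 8 of 23 by small amounts (median −0.13), with Atp5o at −0.42. Ribosomal protein genes rose in 3 of 12, with Rplp0 at 0.50, and in 1 with median scaling. Cholesterol synthesis genes rose in 4 of 22 (median −0.01), near the 14.4% of all genes, with Hsd17b7 at 1.47, and in 2 without naive array 1 or 2. In these lists 0 genes fell, but 1 cholesterol gene was called lower without axotomy array 2, 3 or 4 or naive array 3; in the last 3 of these it was Cyp51 (−0.31 to −0.36).

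The response of CAST as a whole ran along that of the other strains. Across 11815 genes (genes are no independent replicates) the CAST response and the mean response of the other 8 strains had a Pearson correlation of 0.791, a Spearman correlation of 0.704 and a slope of 0.913. In the test of the difference 506 genes had a higher response in CAST and 442 a lower one, 8.02% of the genes in all. Of the 506, 384 rose in CAST, and of the 442, 199 fell in CAST while 72 rose there but by less than elsewhere. Of the genes that rose in CAST 202 were called higher in none of the other 8 strains, but the difference itself was called for 103 of these; for the falls the numbers were 277 and 94.

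**Figure D5:**
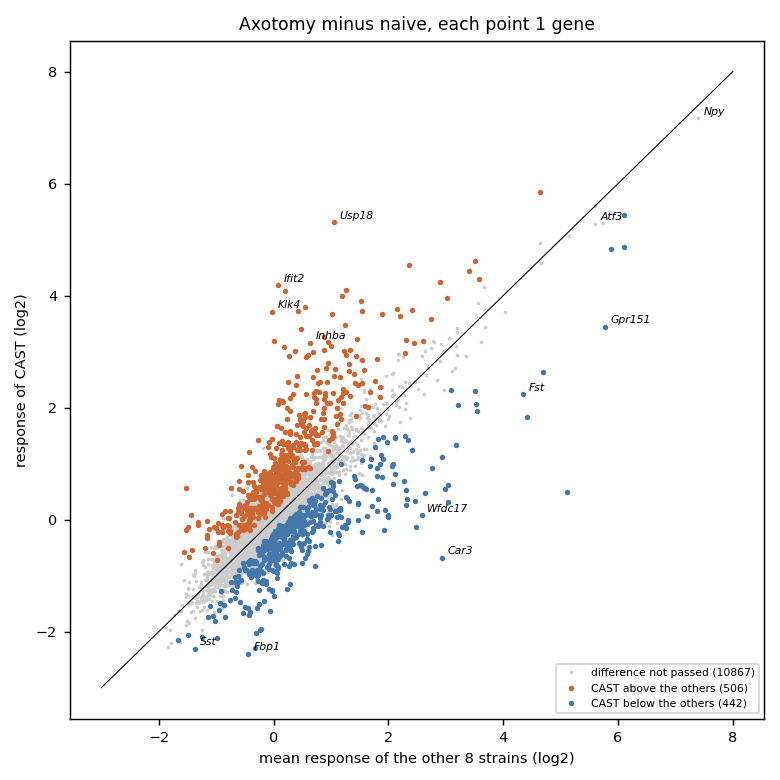
Response of CAST against the mean response of the other 8 strains, in log2 units, each point 1 gene, with the line of equal response; orange and blue points passed the test of the difference (506 and 442 genes) and grey points did not. Npy and Atf3 lie near the line, Usp18, Ifit2, Klk4 and Inhba above it, and Gpr151, Fst, Car3 and Wfdc17 below it.

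The 12 genes furthest above the other strains also held members outside the interferon and chemokine lists. The kallikrein protease gene Klk4 was above background on no naive array and read 8.77, 8.67, 8.75 and 8.83 after axotomy, at least 6.80-fold higher, while the other strains ranged from −0.13 to 0.12. Ms4a8a, of the family of 4-transmembrane MS4A proteins, rose at least 5.76-fold, to 8.95, 8.46, 8.74 and 7.92, while the others ranged from −0.09 to 0.17. No other strain was called higher in either gene, but whether their signal there was above background was not counted. Siglec1, a sialic acid receptor of macrophages that interferon induces, rose at least 6.12-fold against a mean of 1.02 elsewhere, and Ifi27l2a rose by 3.79 against 0.54. Inhba and Fcer1g (2.52 and 2.65 above the others) were not far below these 12.

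Genes that responded less in CAST were led by Car3, a carbonic anhydrase of muscle and fat. It was at 8.77, 7.39, 6.95 and 8.60 before and 8.03, 8.11, 5.75 and 7.09 after axotomy in CAST (−0.68, adjusted p 0.439), with overlapping groups, and rose by 2.94 elsewhere (difference −3.62, SE 0.63, adjusted p 1.79e-05). The mean level of the other 5 adipocyte markers was 8.32, 8.13, 8.27 and 8.57 on the naive arrays and 8.07, 8.19, 7.95 and 7.97 after axotomy; in both measures naive arrays 1 and 4 were the highest of their group and axotomy array 3 the lowest. The mean level of the skeletal muscle list was 7.35, 6.70, 6.70 and 8.54 before and 8.50, 6.74, 6.36 and 7.10 after axotomy. It too was highest on naive arrays 1 and 4 among the naive arrays and lowest on axotomy array 3. The part of fat or muscle in the difference of Car3 was not tested. Wfdc17, a secreted WAP-domain protein of myeloid cells, was at 6.00, 6.32, 7.39 and 6.51 and then at 6.91, 7.32, 5.60 and 6.71 in CAST (0.08, adjusted p 0.849) and rose by 2.58 elsewhere. Both genes were called in CAST in neither direction. The Wfdc17 values were low on every CAST array, 5.60 to 7.39, so background may limit the change measured there. Gpr151 rose by 3.44 against 5.78 and the proteolipid gene Nnat by 0.53 against 2.30. The lipase gene Liph (at least 1.29-fold) and the purine enzyme gene Xdh (at least 1.11-fold) rose from below background in CAST, so their difference to the other strains has no settled size. The rise of Nnat in CAST was not called without naive array 1 or 3 or axotomy array 1 or 4 (highest adjusted p 0.154), and its difference kept its call under every alternative run. Sertm1 was at 0.18 (adjusted p 0.323) against 1.95, with overlapping groups in CAST. Mtus2, which codes for a microtubule-associated protein, was at −0.22 (adjusted p 0.352) against 1.54. Fbp1 (−2.39 against −0.44) and Serpina1d (−2.29 against −0.33) fell further in CAST.

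Fewer genes dropped out of detection than entered it. On all 4 naive arrays and on no axotomy array 20 genes were above background, and 17 of them fell. The highest bounds were those of the interleukin receptor gene Il17re (at least 2.39-fold lower), the calcium pump gene Atp2b3 (at least 2.03-fold), the BMP inhibitor gene Nog (at least 1.73-fold), the lipoxygenase gene Alox8 (at least 1.64-fold), Coro6 (at least 1.54-fold), Tmprss7 (at least 1.49-fold), Angpt4 (at least 1.48-fold) and Abcc12 (at least 1.47-fold). All had low naive levels, Il17re at 7.34, 7.36, 7.53 and 6.69. Alox8 and Abcc12 were called lower in none of the other 8 strains, and their differences were called, with sizes limited by background.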

How the data were processed

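Total RNA of mouse dorsal root ganglia was measured on Illumina arrays of 25697 probes. The deposited table holds, per the file headers, 1 non-normalized intensity and 1 detection p-value per probe and array; the sources used here do not give the scanner software. The 2 columns that match no labelled sample were not used. A second deposited table holds log2 values, which differed by at most 0.027 from quantile-normalized log2 intensities computed here without background correction.

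The background of each array was estimated from the detection p-values and subtracted by a normal-exponential model (nec of limma 3.58.1 in R 4.3.3, offset 16), quantile-normalized over 70 arrays and taken to log2. Probes with detection p below 0.05 on at least 3 arrays were kept (17616), and the brightest probe on average stood for each of 11815 genes. Of all probes 23978 have 1 gene symbol in the platform annotation, 0 have several and 1719 have none; those with none were left out. Means of 18 groups (16 of 4 arrays and 2 of 3) were fitted with limma (lmFit, eBayes with a trend), and p-values were adjusted over all genes by Benjamini-Hochberg at 0.05. The contrasts tested were the CAST response and its difference to the mean response of the other 8 strains. The fit was tested on simulated data with known changes. The number of arrays limits the precision, and each array is a pool of mice.

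Genes were named by rule: the activin pathway and 6 injury markers, the 15 largest changes in each direction among genes whose groups did not overlap, up to 6 members of each gene list with the smallest adjusted p, members moving against their list, the 12 largest differences to the other strains in each direction with the same sign against each of the 8, and the 8 highest bounds in each direction among genes above background in 1 CAST group alone. Another 27 genes were named after their values were seen, among them Irf7, Isg15, Rsad2, Cxcl10, Ctss and Chl1. The members and lists were chosen with earlier results of these data known.

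Same-numbered naive and axotomy arrays did not deviate together (correlations −0.053, −0.147, 0.211 and 0.021), so the replicate numbers were not taken as pairs. Alternatives changed the source of the values, the background correction, the normalization, the filter, the probes per gene, array weights, the arrays in the fit, the blocks, the threshold and the arrays left out.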

Additional observations from a re-analysis of the deposited data

Results flagged for a closer look

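Axotomy responses in CAST and, on average, in the other 8 strains were apart by at least 1 on the log2 scale, with an adjusted p (limma, Benjamini-Hochberg) under 0.05, in 69 of the 302 named genes. Of these, 39 had a higher response in CAST and 30 a lower one, and each difference below is the CAST response minus the mean of the other 8. These genes were in part named for this difference, so their number is a description. For 22 of the 69, 15 higher and 7 lower, the probes were above background on none of the 4 naive arrays or none of the 4 axotomy arrays of CAST, so the CAST change is only a lower bound and the value printed is a difference of measured signals. These are Mx1, Irf7, Cxcl13, Cxcl9, Ccl5, Ccl4, Cfb, Ms4a8a, Siglec1, Fcgr4, Cstdc4, Klk4, Lamb3, Speer1 and Ucn upward. Downward they are Ccl8, Grp, Acvr1c, Liph, Xdh, Stfa2 and Alox8; for the first 6, whose bound is on the naive side, the values do not show a smaller response in CAST.

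Among interferon-stimulated genes the differences were 4.25 for Usp18, which removes ISG15 from proteins, 4.10 for Ifit2, 3.87 for Mx1, 3.30 for Ifit3, 3.25 for Ifi27l2a and 2.92 for Bst2. They were 2.64 for Rsad2, 2.39 for Isg15, 2.34 for Oasl2, 2.03 for the transcription factor Irf7 and 1.34 for Ifitm3. Chemokines differed by 2.90 (Cxcl13), 2.84 (Cxcl9), 2.81 (Ccl5), 2.23 (Cxcl10) and 1.06 (Ccl4) upward, and by −2.06 (Ccl8) downward. Genes of antigen presentation differed by 2.04 (H2-T10), 1.85 (H2-T23), 1.47 (Cd74, the invariant chain), 1.39 (H2-Eb1), 1.10 (H2-DMb1), 1.08 (B2m) and 2.18 (Ctss, a lysosomal protease). The complement genes Cfb and C4b differed by 1.76 and 1.01.

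Genes known from myeloid cells differed in both directions, and which cells of the samples held their transcripts was not tested. Higher were Ms4a8a (3.19), Siglec1 (2.66), Fcer1g (2.65), Fcgr4 (2.39), Csf3r (1.5), Fpr2 (1.28), Cstdc4 (1.34) and Sectm1b (1.11), and lower were Wfdc17 (−2.5), Ly86 (−1.15), Stfa2 (−1.05) and Hdc, the histidine decarboxylase (−1.18).

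Among genes of the activin pathway and growth factors, Inhba, the activin A subunit, differed by 2.52 and Gdnf by 1.26, and the activin antagonist Fst by −2.12 and the receptor Acvr1c by −1.30. Other positive differences were those of Klk4 (3.74), Lamb3 (2.19), Speer1 (1.22) and the neuropeptide urocortin, Ucn (1.02).

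The largest negative difference was that of the carbonic anhydrase Car3 (−3.62). Neuropeptides and neuronal receptors with negative differences were Gpr151 (−2.33), Grp (−1.82), Nxph2 (−1.71), the gastrin receptor Cckbr (−1.23) and neurotensin, Nts (−1.22). Cckbr had low naive values in CAST, so background may limit the size of its difference. The adhesion molecule Chl1 differed by −1.58, Nnat by −1.78, the glial genes Fabp7 and Olig1 by −1.47 and −1.24, and the injury-induced Sprr1a by −1.03. Enzymes with negative differences were Fbp1 (−1.95), Liph (−1.83), Xdh (−1.83), Tk1 (−1.25) and Alox8 (−1.24). The others were Serpina1d (−1.95), Serpina1b (−1.75), Sertm1 (−1.77), Mtus2 (−1.77), Bglap (−1.73), Bglap2 (−1.28) and Ibsp (−1.13). The Sprr1a difference had an adjusted p of 0.0392 and lost its call without any of axotomy arrays 1, 3 and 4 or naive arrays 1, 2 and 3 (highest adjusted p 0.226). That of Bglap2 was lost without any of axotomy arrays 2, 3 and 4 or naive arrays 1 and 4 (highest adjusted p 0.11). With the authors' matrix the difference of Fpr2 was 0.32 (adjusted p 0.254) and that of Ibsp −0.26 (adjusted p 0.0954).

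Single arrays stood apart from the other 3 of their group in 35 of 604 tests, 1 for each named gene and CAST group; about 1 in 20 is the share that chance gives at the critical value of Dixon's test for 4 arrays. The values below are the gap to the nearest array as a share of the range of the group, so that 1 would mean 3 equal arrays. Axotomy array 1 was highest for Bst2 (0.908), Ibsp (0.893), Mmp2 (0.888), Kcnk1 (0.887), Cd3g (0.875), S100a9 (0.863), Rps6 (0.838) and Bglap2 (0.831), and lowest for Nog (0.948). Axotomy array 2 was highest for Foxp3 (0.924), Rps2 (0.875), Rps3 (0.875) and Gadd45a (0.851), and lowest for Syp (0.887). Axotomy array 3 was highest for Tgfbi (0.959) and lowest for Patj (0.937), Alpl (0.879), Slc7a3 (0.879), Scn3b (0.841) and Htr3b (0.839). Axotomy array 4 was lowest for Prc1 (0.913), Speer1 (0.848) and Slc2a1 (0.832).

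Naive array 1 was highest for Bst2 (0.923) and Mobp (0.914) and lowest for Kcnip2 (0.840). Naive array 2 was highest for Ccl9 (0.858). Naive array 3 was highest for Osmr (0.898), Fbp1 (0.852) and Aspa (0.830) and lowest for Atf3 (0.843). Naive array 4 was highest for Eno3 (0.861) and H2-T23 (0.837) and lowest for Vgf (0.868) and H2-T10 (0.862). For Bst2 the array that stood apart was the highest in both groups, and the groups did not overlap.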

How the results depend on the processing

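Against 1705 genes higher and 1903 lower in CAST, and 506 and 442 with a higher and a lower response than the other strains, counts moved by over 1.5 times under 2 alternatives. A test against a fold of at least 1.5, which is stricter by construction, left 501 higher and 214 lower, and 92 and 51 for the difference. Median scaling left 276 genes with a lower response than the other strains, and the cause was not tested; its other counts were 1405, 1467 and 357. Under the remaining alternatives the 4 counts stayed within 1.5 times. The authors' matrix gave 1733 and 1929, the CAST arrays alone 1458 and 1489, and the runs of neighbouring columns as a fixed block, added after seeing the data, 1784 and 2031.

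The replicate numbers did not pair the arrays. With the replicate number as a block, the CAST arrays alone gave 1395 higher and 1367 lower, and all arrays, blocked within strain, gave 1699 and 1857, and 471 and 411 for the difference. Leaving out 1 CAST array at a time gave 1531 to 1668 higher and 1643 to 1830 lower, and 410 to 481 and 354 to 485 for the difference. Without naive arrays 2 and 3, chosen after seeing the data, the difference was called higher for 344 genes and lower for 317.

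No named gene reversed its CAST response under the alternatives run. The difference of Speer3 to the other strains, −0.08 (adjusted p 0.867), turned to 0.49 with the authors' matrix (adjusted p 0.000166) and to 0.49 without background correction (adjusted p 0.00018); the cause was not tested. Apart from the test against a fold of 1.5, the response of Il6 was not called with median scaling (0.59, adjusted p 0.069), and that of Smad4 neither there (0.26, adjusted p 0.149) nor without naive arrays 2 and 3 (adjusted p 0.0633). Those of Il1b and Smad2 were not called with the replicate block on the CAST arrays alone (adjusted p 0.0884 and 0.0674). Without naive arrays 2 and 3, Smad2 (adjusted p 0.146), Osmr (0.0625) and Slc17a7 (0.0772) were not called either, and Osmr was not called with the CAST arrays alone (adjusted p 0.0559). By any of their probes, 926 genes were above background on no CAST array, and signal limits what can be said of them.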
